A study of Homo sapiens with 36 samples.

Results

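The aminoacyl-tRNA synthetases described here are 35 human genes, 19 for cytosolic enzymes and 16 for mitochondrial enzymes, whose names end in 2. They were taken by name and matched to the expression table through their Entrez numbers. All 35 were found among the 26468 genes of the table, and all 35 were among the 15542 genes tested. RNA was sequenced from 6 human colon cancer cell lines, HCT116, SW480, HT29, COLO205, HCT15 and COLO320. Cells of each line received 0.5 µM JQ1 for 24 h, or DMSO, the solvent, for the same time. JQ1, a small molecule, binds the bromodomains of BET proteins, which read acetylated histones at active genes. Each group held 3 libraries, so 18 libraries came from JQ1-treated cells and 18 from DMSO-treated cells. The labels name no engineered allele in any line. Nothing in the labels says that replicates came from separate cultures. The p-values therefore measure only how these samples spread, and that spread may be technical.

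Each aminoacyl-tRNA synthetase joins 1 amino acid to its matching tRNAs, which then carry that amino acid to the ribosome. Cytosolic and mitochondrial translation use separate sets of enzymes, both encoded in the nucleus, while GARS1 and KARS1 each supply both compartments. When charged tRNA runs short, the kinase GCN2 senses it and translation of the transcription factor ATF4 rises, and ATF4 is known to act on several cytosolic synthetase genes as well as on genes of amino acid synthesis such as ASNS.

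Between 18.8 M and 53.1 M reads per library fell in genes (median 24.5 M). Values are RPKM, reads per kilobase of gene and per unit of depth by the authors' scaling, so levels of different genes can be compared. In bulk RNA, fewer cells of a type and less RNA per cell cannot be told apart. Of 9 epithelial markers, 4 to 9 were above 1 RPKM in each line, and COLO320 had the fewest. The epithelial sum was higher with JQ1 in 5 lines, at 9100 to 9200 RPKM with JQ1 and 4340 to 4400 RPKM with DMSO in HT29, and lower in COLO320, at 883 to 917 RPKM with JQ1 and 1150 to 1160 RPKM with DMSO. The markers did not move together. On average 5 of the 9 were higher, among them KRT8 (0.74), KRT18 (0.57) and KRT19 (1.00), against 40.2% of all genes tested. The other 4 were lower, EPCAM (-0.54), CDH17 (-0.84), VIL1 (-0.57) and LGALS4 (-0.15), against 48.3%. With the cell line as the unit of replication (n = 6), 2 were higher and 1 lower, against 18.6% and 20.3% of all genes. In SW480, 3 were higher and 4 lower, against 33.9% and 40.1%. Fibroblast markers summed to at most 3.84 RPKM, except 15.5 to 15.8 RPKM with DMSO in COLO320, where they came to 3.03 to 3.27 RPKM with JQ1. The endothelial markers summed to at most 0.471 RPKM in any library. Leukocyte markers stayed below 10 RPKM in sum in 5 lines and reached 101 to 110 RPKM with JQ1 and 157 to 162 RPKM with DMSO in COLO205, nearly all of it CD68, a lysosomal protein gene, while PTPRC, which marks all leukocytes, was at 0 there. In COLO320 PTPRC was the highest of the leukocyte markers, with a mean of 3.77 RPKM. The part of these markers in the synthetase changes was not tested. Replicates of a group correlated at 0.9964 to 0.9979, and no pair of libraries was close enough to be counted as 1.

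Without JQ1 the cytosolic enzymes were the more abundant class. Their mean levels over the 18 DMSO libraries had a median of 74.7 RPKM, and they ran from 30.3 RPKM for SARS1 to 140.7 RPKM for KARS1, the lysine enzyme. The mitochondrial enzymes had a median of 18.4 RPKM, from 5.23 RPKM for PARS2 to 80.8 RPKM for IARS2. The DMSO level of all 35 genes differed between the lines by the F test, as did 98.8% of all genes tested. QARS1, the glutamine enzyme, was the most even, with line means within 1.19-fold of each other. TARS2, the mitochondrial threonine enzyme, was the least even. It had 212, 220.1 and 215 RPKM in the COLO320 DMSO libraries and 9.03, 8.67 and 9.49 RPKM in the HCT116 DMSO libraries, a ratio of means of 23.8. WARS2, FARS2 and SARS2 followed with ratios of 9.34, 7.74 and 5.82 between their highest and lowest lines, and the highest line was COLO320 for WARS2 and FARS2 and COLO205 for SARS2.

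Averaged over the 6 lines, 26 of the 35 synthetases were lower with JQ1, 7 were higher and 2 did not pass the test. The test was limma on log2(RPKM + 0.5), with a gene called at an adjusted p under 0.05. Of all genes tested, 48.3% were called lower and 40.2% higher in the same comparison, so most genes pass and the size of a change tells more than its call. The median change was -0.22 on the log2 scale for the cytosolic enzymes and -0.20 for the mitochondrial enzymes, against -0.04 for all genes. Of the cytosolic enzymes 15 were lower, 3 higher and 1 not called. Of the mitochondrial enzymes 11 were lower, 4 higher and 1 not called. A fall of at least 1.5-fold was reached by 2 cytosolic genes, IARS1 and MARS1, and 2 mitochondrial genes, YARS2 and FARS2, where 9.02% of all genes fell and 6.78% rose by that much. No synthetase rose by 1.5-fold on average. With the cell line as the unit of replication (n = 6), 8 cytosolic and 5 mitochondrial enzymes stayed lower and 1 of each class, QARS1 and PARS2, stayed higher, against 20.3% of all genes lower and 18.6% higher.

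The lines did not respond alike. All 35 synthetases had a JQ1 effect that differed between lines by the F test, as did 93.3% of all genes. In HCT116, 14 cytosolic and 10 mitochondrial enzymes were lower and 4 and 3 were higher, against 35.5% of all genes lower and 32.4% higher. In HT29 the counts were 16 and 10 lower and 3 and 2 higher, against 37.3% and 36.6% of all genes. In COLO205 they were 18 and 11 lower and 1 and 3 higher, against 38.6% and 34.2%. In HCT15 they were 13 and 9 lower and 5 and 2 higher, against 35.4% and 34.8%. In COLO320 they were 18 and 9 lower and 1 and 2 higher, against 37.2% and 31.0%. SW480 was the line in which more cytosolic enzymes were higher, 11, than lower, 5, against 33.9% of all genes higher and 40.1% lower, while its mitochondrial enzymes were 6 higher and 9 lower.

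Changes of at least 1.5-fold were nearly all falls, and they gathered in HT29 and COLO205. In HT29, 7 cytosolic and 5 mitochondrial enzymes fell that far, against 14.7% of all genes, and none rose that far, against 12.7%. In COLO205, 10 cytosolic and 1 mitochondrial enzyme fell that far, against 14.2%, and none rose, against 10.7%. With quantile normalization the cytosolic count in COLO205 was 5. HCT116 had 3 and 1 such falls, against 9.52%, and 1 such rise, WARS2, against 6.55%. WARS2 passed 1.5-fold by little and fell under it without JQ1 replicate 2 or 3 or DMSO replicate 3. HCT15 had 2 and 1 falls, against 10.9%, and no rise, against 10.5%. COLO320 had 0 and 1 falls, against 11.4%, and no rise, against 6.23%. SW480 had 0 cytosolic and 4 mitochondrial falls, against 13.4%, and 2 cytosolic rises, AARS1 and GARS1, against 10.1%. The median change of the cytosolic enzymes was 0.18 on the log2 scale in SW480 and between -0.59 in COLO205 and -0.11 in HCT15 in the other lines. That of the mitochondrial enzymes lay between -0.39 in HT29 and -0.11 in HCT15 in all 6 lines.

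**Figure D1:**
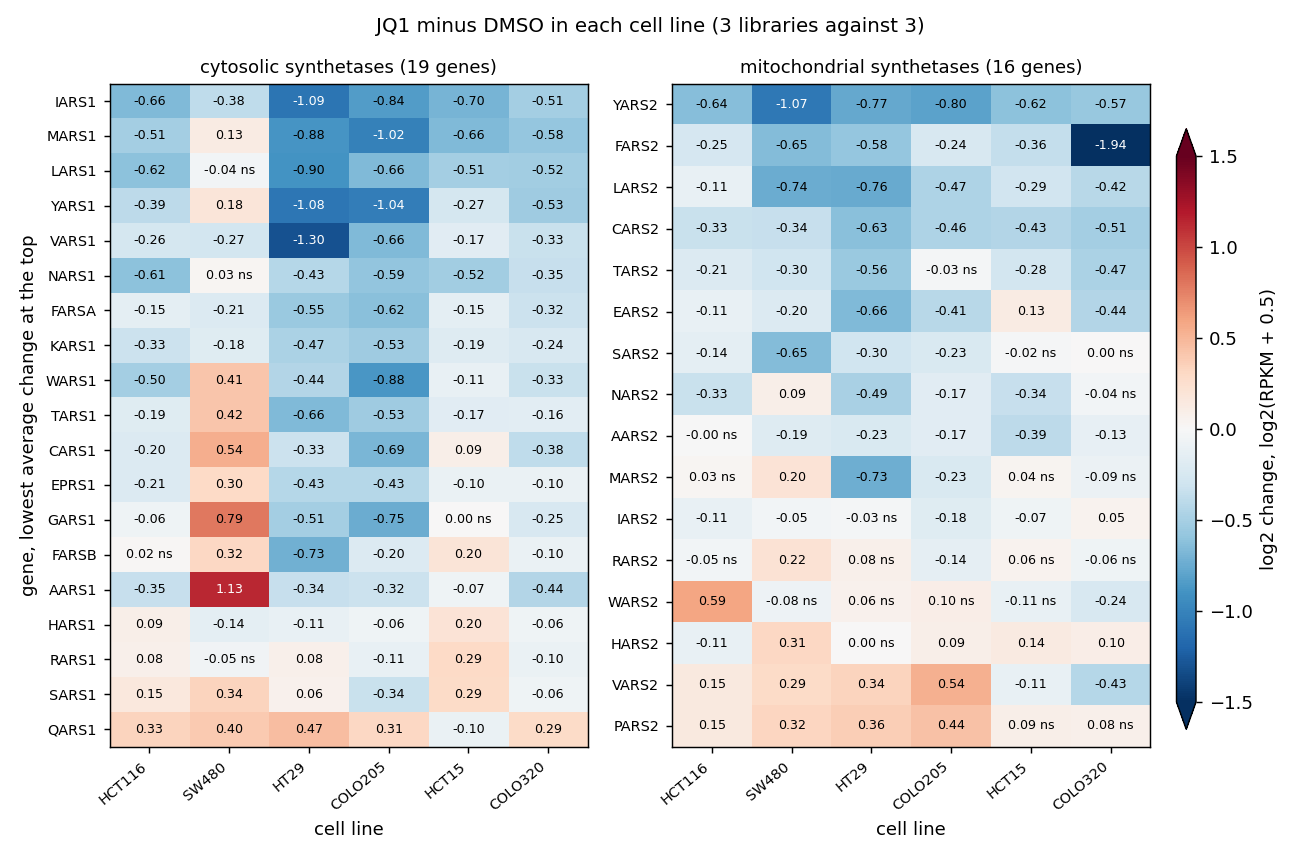
Log2 change, JQ1 minus DMSO on log2(RPKM + 0.5), of each cytosolic (left) and mitochondrial (right) synthetase in each cell line, 3 libraries against 3; ns marks an adjusted p of 0.05 or more. Blue is lower with JQ1: IARS1 and YARS2 are blue in all 6 lines, the SW480 column of the cytosolic panel is mostly red, and FARS2 in COLO320 is the deepest fall.

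Among the cytosolic enzymes, 7 of the 19 belong to the multisynthetase complex, in which enzymes for several amino acids are held together by the scaffold proteins AIMP1, AIMP2 and EEF1E1. On average 5 of the 7 were lower and 2 higher, against 48.3% and 40.2% of all genes. IARS1 (Entrez 3376), the isoleucine enzyme, was lower in every line. In HT29 it had 47.1, 47.9 and 48.4 RPKM in the JQ1 libraries, against 101, 103 and 103 RPKM in the DMSO libraries. In SW480 it had 62.8, 62.2 and 63.2 RPKM in the JQ1 libraries, against 80.6, 83.4 and 81.8 RPKM in the DMSO libraries. The libraries of both groups were apart in each line, and the log2 change was largest in HT29, -1.09 ± 0.015 (SE, n = 3 against 3; adjusted p = 1.29e-29), and smallest in SW480, -0.38 ± 0.015 (SE, n = 3 against 3; adjusted p = 4.60e-19). Its average over the lines was -0.70 ± 0.0061 (SE; adjusted p = 7.66e-35). That SE reflects the spread of libraries within groups and not the spread over the lines, whose SD was 0.249. With the cell line as the unit limma's adjusted p was 0.00115.

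MARS1 (Entrez 4141), which charges both initiator and elongator methionine tRNAs, had 44.9, 46.1 and 43.99 RPKM in the JQ1 libraries, against 90.3, 92.6 and 92.1 RPKM in the DMSO libraries in COLO205. In SW480 it had 105, 108 and 105 RPKM in the JQ1 libraries, against 96.6, 95.98 and 98.8 RPKM in the DMSO libraries. It fell 2.03-fold in COLO205 and rose 1.09-fold in SW480, with no overlap of libraries in either line. LARS1 (Entrez 51520), the leucine enzyme and also a leucine sensor for mTORC1, had 31.3, 31.9 and 31.6 RPKM in the JQ1 libraries, against 58.6, 60.1 and 59.2 RPKM in the DMSO libraries in HT29. In SW480 it had 34.3, 34 and 33.9 RPKM in the JQ1 libraries, against 34.6, 36 and 34.4 RPKM in the DMSO libraries, a difference that did not pass the test (adjusted p = 0.149). Both genes were lower in the other 5 lines, with log2 changes of -0.51 to -1.02 for MARS1 and -0.51 to -0.90 for LARS1.

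KARS1, which supplies lysine tRNAs to both compartments, was lower in all 6 lines, with log2 changes of -0.18 in SW480 to -0.53 in COLO205. EPRS1, a fused enzyme for glutamate and proline, was lower in 5 lines and higher in SW480 (0.30). QARS1 (Entrez 5859) was the exception in the complex and rose in 5 of 6 lines. In HT29 it had 101, 105 and 104 RPKM in the JQ1 libraries, against 73.6, 75.4 and 74.7 RPKM in the DMSO libraries. In HCT15 it had 65.1, 63.9 and 65.8 RPKM in the JQ1 libraries, against 69.5, 69.6 and 69.6 RPKM in the DMSO libraries. JQ1 libraries were thus above all DMSO libraries in HT29 and below them in HCT15, with log2 changes of 0.47 ± 0.019 (SE, n = 3 against 3; adjusted p = 6.10e-19) and -0.10 ± 0.019 (SE, n = 3 against 3; adjusted p = 3.19e-05). RARS1 (Entrez 5917), the arginine enzyme, moved little. It had 107, 107 and 109 RPKM in the JQ1 libraries, against 89.99, 87.6 and 85.6 RPKM in the DMSO libraries in HCT15, its largest change. In SW480 it had 76.5, 76.8 and 75.1 RPKM in the JQ1 libraries, against 75.5, 80.8 and 81.1 RPKM in the DMSO libraries, and those groups overlapped. Its average call, 0.03 ± 0.013 (SE; adjusted p = 0.0351), was lost when any of 13 libraries was left out, and the change turned to -0.0064 with total reads as the divisor. It was not called with the cell line as the unit (limma's adjusted p = 0.74).

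All 3 scaffold genes were lower on average, as were 48.3% of all genes. AIMP1 had 28.1, 28.03 and 27.2 RPKM in the JQ1 libraries, against 43.03, 41.03 and 41.05 RPKM in the DMSO libraries in COLO205, and 22.03, 22.03 and 21.1 RPKM in the JQ1 libraries, against 24.8, 24.9 and 22.8 RPKM in the DMSO libraries in HCT116. It was lower in all 6 lines, SW480 included (-0.54). EEF1E1, also called AIMP3, had 20.03, 18.9 and 19.2 RPKM in the JQ1 libraries, against 35.2, 36.97 and 36.05 RPKM in the DMSO libraries in HT29, and 32.4, 34.03 and 32.5 RPKM in the JQ1 libraries, against 39.1, 43.4 and 39.3 RPKM in the DMSO libraries in HCT15. It too was lower in all 6 lines. AIMP2, the scaffold that binds most of the enzymes, had 46.4, 47.1 and 47.1 RPKM in the JQ1 libraries, against 63.4, 61.1 and 61.7 RPKM in the DMSO libraries in COLO205. In HCT15 it had 64.7, 62.2 and 66.95 RPKM in the JQ1 libraries, against 65.4, 64.2 and 65.9 RPKM in the DMSO libraries, with overlapping groups, and in HCT116 it was higher by 0.25. In SW480 AIMP2 differed by 0.02, which was not called.

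The other 12 cytosolic genes act outside the complex, and 10 of them were lower on average, 1 higher and 1 not called, against 48.3% of all genes lower and 40.2% higher. In SW480, 8 of the 12 were higher, against 33.9% of all genes. AARS1 (Entrez 16), the alanine enzyme, and GARS1 (Entrez 2617), the glycine enzyme, differed strongly between lines by the F test (adjusted p = 2.85e-27 and 2.32e-23). Only AARS1 and WARS1 had smaller values in this class than GARS1, which was named here after its values were seen. Promoters were searched for the C/EBP-ATF response element, the site through which ATF4 and its partners act on amino acid response genes, written TGATGNAA and read on both strands (TTNCATCA on the other). It was found in the 250 bases before to 50 after the start of 7 of the 16 cytosolic genes with a promoter sequence (43.8%), and in 1 of 14 mitochondrial genes (7.14%). It stands in 3.62% of all 35116 promoters of the same length. The stricter letters TGATGCAA, which overlap with it, were in 6 of the 16 and 0 of the 14, against 0.866% of all promoters. The following sequences, from RefSeq on GRCh38.p14, are 60-base windows of those 8 genes. They are shown because AARS1 and GARS1, which differed most in SW480, are among them, and capitals mark the element.
AARS1 (chr16:70289660-70289719, minus strand): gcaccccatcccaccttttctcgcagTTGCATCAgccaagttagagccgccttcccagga
GARS1 (chr7:30594842-30594901, plus strand): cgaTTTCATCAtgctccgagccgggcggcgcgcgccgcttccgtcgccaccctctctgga
CARS1 (chr11:3057400-3057459, minus strand): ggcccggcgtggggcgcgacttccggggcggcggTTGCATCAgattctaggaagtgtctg
TARS1 (chr5:33440929-33440988, plus strand): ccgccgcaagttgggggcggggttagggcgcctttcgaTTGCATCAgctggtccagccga
MARS1 (chr12:57488032-57488091, plus strand): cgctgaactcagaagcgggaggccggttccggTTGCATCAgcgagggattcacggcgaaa
IARS1 (chr9:92293674-92293733, minus strand): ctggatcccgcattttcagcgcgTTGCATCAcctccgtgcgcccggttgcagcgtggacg
NARS1 (chr18:57621813-57621872, minus strand): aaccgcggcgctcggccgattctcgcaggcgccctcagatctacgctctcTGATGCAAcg
YARS2 (chr12:32756061-32756120, minus strand): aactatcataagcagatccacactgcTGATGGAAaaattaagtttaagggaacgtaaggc
In 6 of them the window runs from 36 bases before to 24 after the start site. Counted from the start site, with bases before it negative, the element lies at -187 to -180 in AARS1 and at -197 to -190 in YARS2. A match is a description of these letters and not a sign of binding. Promoter sequences were matched for 30 of the 35 genes. AARS2, LARS1, VARS1, VARS2 and YARS1 were not searched.

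In SW480 AARS1 had 96.7, 99.8 and 97.7 RPKM in the JQ1 libraries, against 44.7, 43.9 and 44.8 RPKM in the DMSO libraries. In HCT15 it had 53.7, 53.5 and 54.05 RPKM in the JQ1 libraries, against 56.7, 56.1 and 56.02 RPKM in the DMSO libraries. The SW480 level thus rose 2.19-fold with no overlap, while in each of the other 5 lines AARS1 was lower, with log2 changes of -0.07 to -0.44. Among the DMSO groups, SW480 was the line with the least AARS1, 44.4 ± 0.511 RPKM (SD, n = 3). GARS1 had 238, 233 and 233 RPKM in the JQ1 libraries, against 134, 135 and 137 RPKM in the DMSO libraries in SW480. In HCT15 it had 119, 118 and 118 RPKM in the JQ1 libraries, against 119.7, 118 and 117 RPKM in the DMSO libraries, with overlapping groups. Other scalings called it lower there, by -0.1216 with total reads as the divisor and by -0.0707 with quantile normalization. GARS1 rose 1.73-fold in SW480 and fell 1.68-fold in COLO205.

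**Figure D2:**
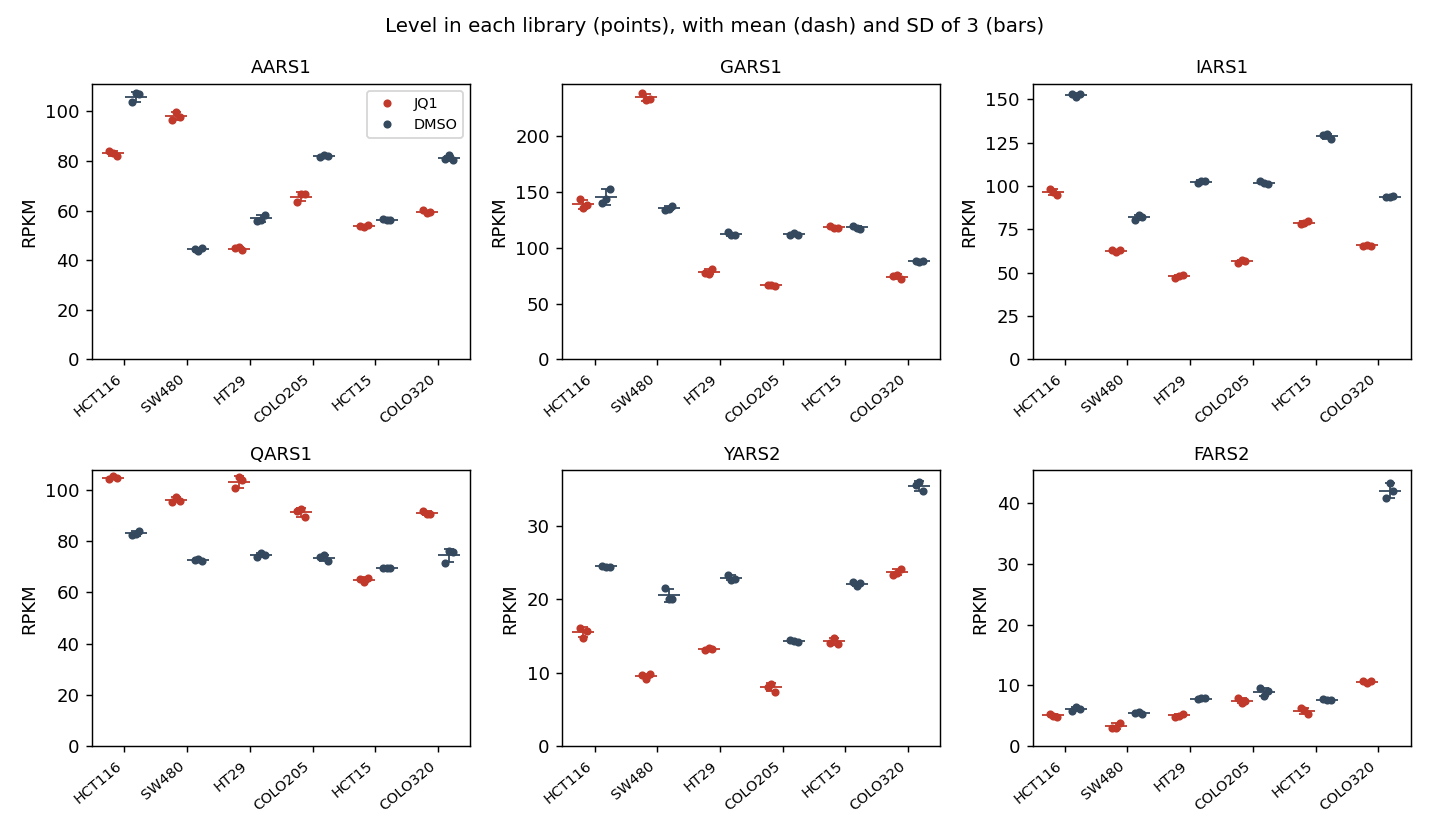
RPKM of 6 synthetases in each library (points), with the mean (dash) and SD (bars) of 3, JQ1 to the left of DMSO in each cell line. The JQ1 libraries of SW480 lie above their DMSO libraries for AARS1 and GARS1, those of IARS1 and YARS2 lie below in all 6 lines, QARS1 lies above in all lines but HCT15, and FARS2 shows a DMSO level near 42.1 RPKM in COLO320 alone.

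The difference between SW480 and the mean of the other 5 lines was tested directly. Of the 35 synthetases, 24 had a more positive JQ1 effect in SW480 and 6 a more negative one, against 32.1% and 33.5% of all genes. The cytosolic class gave 17 of the 24 and 2 of the 6. AARS1 changed by 1.13 in SW480 and -0.30 in the mean of the others, a difference of 1.44 ± 0.021 (SE; adjusted p = 2.91e-28). GARS1 changed by 0.79 in SW480 and -0.31 in the others, a difference of 1.11 ± 0.027 (SE; adjusted p = 4.51e-23). WARS1, MARS1, YARS1, CARS1, TARS1 and LARS1 followed, with differences of 0.60 to 0.87. HARS1 and RARS1 were the cytosolic genes with a more negative effect in SW480 (-0.15 and -0.10). The mitochondrial enzymes were split, 7 more positive and 4 more negative, and SARS2, YARS2 and LARS2 had the lowest values (-0.51, -0.39 and -0.33). The scaffold gene AIMP1 was lower in SW480 (-0.54), while MARS1 and EPRS1, enzymes of the same complex, rose.

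**Figure D3:**
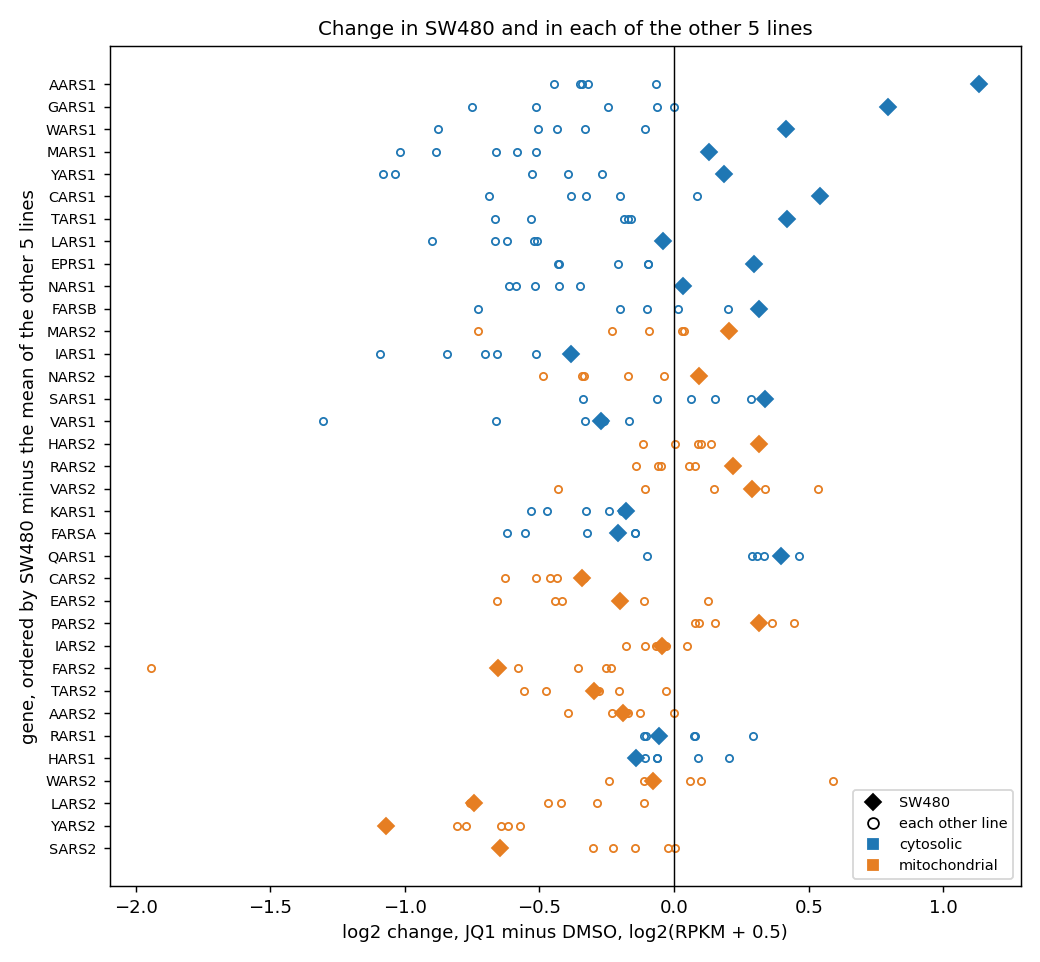
Log2 change, JQ1 minus DMSO, of each synthetase in SW480 (diamonds) and in each of the other 5 lines (open circles), cytosolic in blue and mitochondrial in orange. The genes are ordered by the difference between SW480 and the mean of the other lines, 1.44 for AARS1 at the top and -0.51 for SARS2 at the bottom.

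Grouped by the response element, the 7 cytosolic genes that hold TGATGNAA had a median difference between SW480 and the other lines of 0.84 (range 0.38 to 1.44), and the 9 without it had a median of 0.17 (range -0.15 to 0.87). The ranges overlap, WARS1 being the highest of those without the letters. LARS1, VARS1 and YARS1 were not searched and are in neither group. Their differences were 0.60, 0.27 and 0.85, so the medians could shift if their promoters were known. In the other 5 lines the genes that hold it had the lower median. It was -0.69 in COLO205, -0.35 in HCT116 and -0.38 in COLO320, against -0.34, 0.02 and -0.10 for those without. The gap was smaller in HT29, -0.51 against -0.43, and in HCT15, -0.17 against -0.10. The ranges overlapped in each of these lines too. No test was made of these groups.

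Other genes known to respond to ATF4 were followed in the same libraries. ATF4 itself had 88.5, 90.7 and 87.8 RPKM in the JQ1 libraries, against 58.8, 59.02 and 61.3 RPKM in the DMSO libraries in SW480. In COLO205 it had 56.7, 55.8 and 54.6 RPKM in the JQ1 libraries, against 109, 111 and 107 RPKM in the DMSO libraries. ATF4 mRNA was thus higher in SW480 and lower in each of the other 5 lines, with log2 changes of -0.08 to -0.96. ASNS, which makes asparagine, had 532, 532 and 528 RPKM in the JQ1 libraries, against 65.7, 67.7 and 68.8 RPKM in the DMSO libraries in SW480. In COLO320 it had 24.02, 23.9 and 22.99 RPKM in the JQ1 libraries, against 33, 33.2 and 33.3 RPKM in the DMSO libraries. It rose 7.82-fold in SW480 and also rose in HCT15, HCT116 and HT29, with log2 changes of 1.69, 1.17 and 0.66, lines in which most cytosolic synthetases were lower.

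Of 21 ATF4 response genes tested, of 22 listed, 17 were higher in SW480, none lower and 4 not called, against 33.9% of all genes higher and 40.1% lower. A rise of at least 1.5-fold was reached by 12 of them, against 10.1% of all genes, and the list median was 0.86 against -0.02 for all genes. In COLO205, 3 were higher and 16 lower, against 34.2% and 38.6% of all genes, with a median of -0.70. In HT29, 6 were higher and 14 lower, against 36.6% and 37.3% of all genes, with a median of -0.75. HCT15 was mixed, with 6 higher and 12 lower, against 34.8% and 35.4% of all genes, and a median of -0.10. There 5 rose and 5 fell by at least 1.5-fold, against 10.5% and 10.9% of all genes. PSAT1, of serine synthesis, changed by 1.16 in SW480 and -1.95 in COLO205. SLC7A11, the cystine transporter, changed by 0.86 and -1.89, and CHAC1, which degrades glutathione, by 2.06 and -1.34. Over all lines the largest average changes in the list were those of TRIB3 (-1.47), SLC7A11 (-1.14), ASNS (0.90) and ATF3 (0.69). Among the sensing genes, EIF2AK4, which encodes GCN2, fell in SW480 (-0.25), and its activator GCN1 rose (0.25). This was not particular to SW480, since both changed likewise in HCT15 (-0.38 and 0.26). EIF2AK4 also fell in HCT116 (-0.245) and COLO205 (-0.14), and it rose in HT29 (0.08). The part of any of these genes in the synthetase changes was not tested.

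MYC, which is known to bind promoters of genes for translation, was lower in all lines. It had 41.6, 43.1 and 43.04 RPKM in the JQ1 libraries, against 107, 109.8 and 109.7 RPKM in the DMSO libraries in HT29. In SW480 it had 68.02, 68.8 and 68.9 RPKM in the JQ1 libraries, against 77.5, 75.6 and 74.4 RPKM in the DMSO libraries. The fall was 2.54-fold in HT29 and 1.11-fold in SW480, the line where the fewest cytosolic synthetases were lower. COLO320 expressed MYC at 1176 ± 6.77 RPKM with JQ1 and 1849 ± 13 RPKM with DMSO (SD, n = 3 each), and its cytosolic enzymes changed by -0.58 on the log2 scale at the lowest. The E-box CACGTG, the letters that MYC with MAX is known to bind, was in the promoters of IARS1, 1 of 16 cytosolic genes, and MARS2, CARS2 and EARS2, 3 of 14 mitochondrial genes, against 7.26% of all promoters. The part of MYC in these changes was not tested.

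Outside SW480 the deepest cytosolic falls were in HT29 and COLO205. VARS1, the valine enzyme, had 24.9, 24.5 and 24.2 RPKM in the JQ1 libraries, against 60.8, 62.7 and 60.1 RPKM in the DMSO libraries in HT29, a 2.47-fold fall and the largest of any cytosolic enzyme in any line. Its change was -1.30 on the log2 scale and the mean of the other 5 lines -0.34, a difference of -0.96 ± 0.031 (SE; adjusted p = 1.74e-20). YARS1, the tyrosine enzyme, had 39.3, 40.7 and 40.7 RPKM in the JQ1 libraries, against 83.6, 87.2 and 86.2 RPKM in the DMSO libraries in HT29. It fell by a similar amount in COLO205 (-1.04, against -1.08 in HT29), and was higher in SW480 (0.18). VARS1, YARS1, FARSA and FARSB were picked for values by library after they were seen.

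FARSA and FARSB encode the alpha and beta subunits of 1 enzyme, the cytosolic phenylalanine enzyme, and they did not move as a unit. FARSA was lower in all 6 lines, with log2 changes of -0.15 in HCT116 to -0.62 in COLO205. FARSB changed by -0.73 in HT29, and it rose in SW480 (0.32) and HCT15 (0.20). In SW480 FARSA had 42.95, 43.96 and 45.9 RPKM in the JQ1 libraries, against 52.8, 49.3 and 51.5 RPKM in the DMSO libraries. FARSB had 48.9, 48 and 45.6 RPKM in the JQ1 libraries, against 37.2, 38.5 and 38.5 RPKM in the DMSO libraries of that line. The subunits thus moved in opposite directions there, each with no overlap of libraries.

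WARS1, the tryptophan enzyme, which interferon gamma is known to induce, had 41.9, 42.9 and 40.97 RPKM in the JQ1 libraries, against 78.5, 77.2 and 76.5 RPKM in the DMSO libraries in COLO205. In HCT15 it had 55.7, 55.9 and 56.7 RPKM in the JQ1 libraries, against 61.5, 60.2 and 59.98 RPKM in the DMSO libraries. It was lower in 5 lines and higher in SW480 (0.41). Of 9 interferon gamma response genes, 5 were tested and 4 of them were higher on average, against 40.2% of all genes. Among them were PSMB9 (0.36) and IRF1 (0.36), while WARS1 was lower (-0.31). With the cell line as the unit 2 of the 5 were higher, against 18.6% of all genes. In COLO205 PSMB9 changed by 0.73 and IRF1 by 0.52, while WARS1 changed by -0.88. Other lines differed. In SW480, where WARS1 rose, 2 of the 5 were higher, against 33.9% of all genes, and PSMB9 and IRF1 were not called. In HCT15, 2 were higher and 2 lower, against 34.8% and 35.4%, and PSMB9 fell (-0.51), as did WARS1.

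Of the rest outside the complex, CARS1, the cysteine enzyme, and TARS1, the threonine enzyme, rose in SW480, by 0.54 and 0.42, and fell in COLO205, HT29, HCT116 and COLO320, with log2 changes of -0.16 to -0.69. NARS1, the asparagine enzyme, fell in 5 lines, with log2 changes of -0.35 to -0.61, and its change in SW480 (0.03) was not called. SARS1 (Entrez 6301), which charges serine tRNAs and also the selenocysteine tRNA, had 18.5, 18.7 and 17.9 RPKM in the JQ1 libraries, against 23.7, 22.5 and 23.8 RPKM in the DMSO libraries in COLO205, its largest change. In HT29 it had 26.7, 27.2 and 27.7 RPKM in the JQ1 libraries, against 25.5, 26.04 and 26.5 RPKM in the DMSO libraries, its smallest. It was higher in 4 lines and lower in 2, though its HT29 change turned to -0.0064 with total reads as the divisor. Its call was lost in HT29 without JQ1 replicate 3 or DMSO replicate 1 (limma's adjusted p = 0.0821 and 0.0893), and in COLO320 without JQ1 replicate 3 (0.0523). HARS1, the histidine enzyme, had the smallest average change of the class, -0.01 ± 0.0085 (SE; adjusted p = 0.129), and is given with its mitochondrial partner.

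The mitochondrial enzymes supply tRNAs for the few proteins made inside mitochondria, subunits of the respiratory chain and the ATP synthase. YARS2 (Entrez 51067), the tyrosine enzyme, had the largest average fall of all 35 genes, -0.75 ± 0.014 (SE; adjusted p = 3.61e-27). With the cell line as the unit limma's adjusted p was 0.000556. In SW480 it had 9.63, 9.19 and 9.81 RPKM in the JQ1 libraries, against 21.6, 20.1 and 20.03 RPKM in the DMSO libraries. In COLO320 it had 23.3, 23.6 and 24.2 RPKM in the JQ1 libraries, against 35.6, 36.05 and 34.7 RPKM in the DMSO libraries. The libraries were apart in all 6 lines, and the fall was 2.10-fold in SW480 and 1.49-fold in COLO320. It was the only gene of the mitochondrial class with the element TGATGNAA among those searched, and it fell in SW480 where the cytosolic genes with it, apart from IARS1 and NARS1, rose.

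FARS2 (Entrez 10667), the phenylalanine enzyme, had the largest single change. In COLO320 it had 10.7, 10.4 and 10.7 RPKM in the JQ1 libraries, against 40.9, 43.4 and 42.01 RPKM in the DMSO libraries. In COLO205 it had 7.94, 7.14 and 7.45 RPKM in the JQ1 libraries, against 9.51, 8.20 and 9.11 RPKM in the DMSO libraries. The fall was 3.84-fold in COLO320, where its DMSO level was also several times that of any other line, and 1.18-fold in COLO205. In COLO320 the change was -1.94 and in the mean of the other lines -0.42, a difference of -1.53 ± 0.069 (SE; adjusted p = 3.45e-17). The JQ1 mean of FARS2 in COLO320, 10.6 ± 0.189 RPKM, was still above the highest DMSO mean elsewhere, 8.94 ± 0.670 RPKM in COLO205 (SD, n = 3 each). LARS2 (Entrez 23395), the leucine enzyme, was lower in all 6 lines. It had 5.70, 5.88 and 6.49 RPKM in the JQ1 libraries, against 10.4, 10.9 and 10.3 RPKM in the DMSO libraries in HT29. In HCT116 it had 15.8, 15.3 and 16.4 RPKM in the JQ1 libraries, against 17.4, 17.1 and 16.9 RPKM in the DMSO libraries. Groups were apart in both, with changes of -0.76 ± 0.036 (SE, n = 3 against 3; adjusted p = 2.66e-17) and -0.11 ± 0.036 (SE, n = 3 against 3; adjusted p = 0.00837). The HCT116 call was lost without JQ1 replicate 2 (-0.09, limma's adjusted p = 0.0559).

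EARS2 (Entrez 124454), which charges glutamate, had the smallest adjusted p of the F test among the mitochondrial enzymes (2.05e-17). It had 14.8, 14.9 and 15.1 RPKM in the JQ1 libraries, against 23.4, 24.1 and 24.1 RPKM in the DMSO libraries in HT29. In HCT116 it had 21.9, 20.6 and 22.01 RPKM in the JQ1 libraries, against 23.2, 23.3 and 23.2 RPKM in the DMSO libraries. It was lower in 5 lines and higher in HCT15 (0.13), a call lost with total reads as the divisor. EARS2 also places glutamate on the mitochondrial glutamine tRNA, and an amidotransferase of QRSL1, GATB and GATC then turns it into glutamine. QRSL1 and GATB were lower in all 6 lines, with average changes of -0.65 and -0.49, and GATC changed by 0.04.

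CARS2, the cysteine enzyme, was lower in all 6 lines within a narrow range, -0.33 to -0.63. TARS2 was lower in 5 lines and not called in COLO205, and in COLO320, where it was most abundant, it averaged 155 ± 2.40 RPKM with JQ1 and 216 ± 4.28 RPKM with DMSO (SD, n = 3 each). SARS2, the serine enzyme, fell 1.56-fold in SW480 and was not called in HCT15 and COLO320. MARS2, the methionine enzyme, fell 1.66-fold in HT29 and rose 1.15-fold in SW480, and it was not called in HCT116, HCT15 and COLO320. NARS2, the asparagine enzyme, ranged from -0.49 in HT29 to 0.09 in SW480, a call lost without any of 17 single libraries. AARS2, the alanine enzyme, was lowest in HCT15 (-0.39), lower in 4 more lines and not called in HCT116, and its COLO320 call was lost without JQ1 replicate 3 (limma's adjusted p = 0.0503). IARS2, the isoleucine enzyme and the most abundant of the class, stayed between -0.18 and 0.05. RARS2, the arginine enzyme, was higher in SW480 (0.22), lower in COLO205 (-0.14) and not called in the other 4 lines.

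PARS2, VARS2, HARS2 and WARS2 were the 4 mitochondrial enzymes higher on average, WARS2 not with total reads as the divisor. PARS2 (Entrez 25973), the proline enzyme, had 7.57, 7.61 and 7.73 RPKM in the JQ1 libraries, against 5.42, 5.29 and 5.74 RPKM in the DMSO libraries in COLO205. In COLO320 it had 6.05, 5.91 and 6.50 RPKM in the JQ1 libraries, against 5.59, 6.10 and 5.74 RPKM in the DMSO libraries, and those groups overlapped. It was higher in 4 lines and not called in HCT15 and COLO320. VARS2 (Entrez 57176), the valine enzyme, had 10.7, 11.1 and 10.4 RPKM in the JQ1 libraries, against 7.09, 6.86 and 7.79 RPKM in the DMSO libraries in COLO205. In HCT15 it had 10.8, 10.6 and 10.3 RPKM in the JQ1 libraries, against 11.2, 11.8 and 11.2 RPKM in the DMSO libraries. It rose in 4 lines and fell in HCT15 and COLO320 (adjusted p = 0.0473 in HCT15). The HCT15 call was lost with a pseudocount of 0.1, without the filter, and without any of 20 single libraries, with limma's adjusted p up to 0.163 without DMSO replicate 2 of that line.

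WARS2, the mitochondrial tryptophan enzyme, had 4.28, 4.45 and 4.47 RPKM in the JQ1 libraries, against 2.75, 2.81 and 2.69 RPKM in the DMSO libraries in HCT116. This was its lowest line, the rise was 1.51-fold, and the groups did not overlap. In HT29 it had 12.2, 12.5 and 12.8 RPKM in the JQ1 libraries, against 11.97, 12.6 and 11.4 RPKM in the DMSO libraries, with overlapping groups. WARS1 and WARS2 moved in opposite directions in HCT116, where WARS1 had 45.9, 45.2 and 44.5 RPKM in the JQ1 libraries, against 64.4, 64.4 and 64.2 RPKM in the DMSO libraries.

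HARS1 and HARS2, the histidine enzymes of both compartments, lie head to head on chromosome 5. The 84 bases between their annotated starts on GRCh38.p14 in RefSeq are shown because they separate the starts of both genes. They are printed without capitals.
HARS1-HARS2 gap (chr5:140691371-140691454, plus strand): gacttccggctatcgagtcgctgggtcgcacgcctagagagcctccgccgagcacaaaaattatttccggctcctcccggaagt
The genes still differed. HARS2 (Entrez 23438) had 21.8, 21.8 and 22.2 RPKM in the JQ1 libraries, against 16.99, 18.1 and 17.6 RPKM in the DMSO libraries in SW480. In HT29 it had 21.7, 21.1 and 21.6 RPKM in the JQ1 libraries, against 21.02, 21.9 and 21.2 RPKM in the DMSO libraries. HARS1 had 46.5, 47.4 and 47.1 RPKM in the JQ1 libraries, against 41.4, 41.3 and 39.5 RPKM in the DMSO libraries in HCT15, its largest change. In SW480 HARS1 was lower, -0.14 ± 0.021 (SE, n = 3 against 3; adjusted p = 6.27e-07), and HARS2 higher, 0.31 ± 0.034 (SE, n = 3 against 3; adjusted p = 2.43e-09). In HCT116 HARS1 was higher (0.09) and HARS2 lower (-0.11). In HCT15 both were higher, by 0.20 and 0.14. All of these passed the test, HARS2 in HCT15 not with total reads as the divisor.

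Set side by side for the same amino acid, 16 pairs of a cytosolic and a mitochondrial enzyme could be followed, with EPRS1 in 2 of them. The ratio of cytosolic to mitochondrial RNA was lower with JQ1 in all 6 lines for isoleucine, methionine and proline, with mean log2 changes of -0.63, -0.46 and -0.40. In SW480 the methionine and proline changes, -0.075 and -0.0191, were smaller than the SD of their JQ1 libraries, 0.0907 and 0.0484. For the other 13 pairs the direction of the ratio differed between lines. Averaged over the lines 8 pairs were lower and 8 higher, with a median of -0.03. In COLO205, 15 of the 16 ratios were lower and arginine was the other, with a median of -0.31. In SW480, 9 ratios were higher and 7 lower, with a median of 0.47. The largest shifts were 1.62 for phenylalanine in COLO320, where FARS2 fell, -1.64 for valine in HT29, where VARS1 fell and VARS2 rose, and 1.32 for alanine in SW480. These ratios are a description and carry no test.

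**Figure D4:**
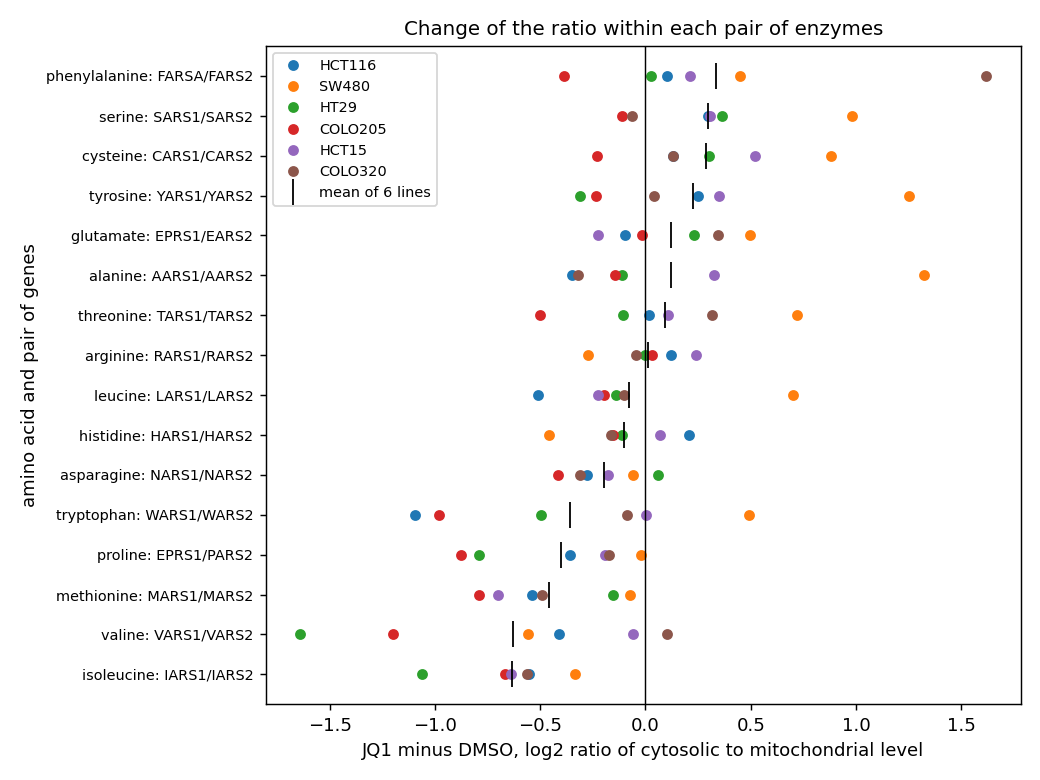
Change with JQ1 of the log2 ratio of cytosolic to mitochondrial enzyme RNA for each amino acid, with 1 point per cell line and a bar at the mean of the 6 lines. Points to the right mean that the cytosolic enzyme gained on its partner. Isoleucine, methionine and proline lie left of 0 in all lines, methionine and proline only slightly in SW480. SW480 lies furthest right for 11 of the 16 pairs.

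Summed over the class, cytosolic synthetase RNA in SW480 came to 1432 ± 5.97 RPKM with JQ1 and 1193 ± 13.8 RPKM with DMSO, a ratio of 1.20 (SD, n = 3 each). In the other lines the ratio ran from 0.692 in COLO205, with 1113 ± 19.0 RPKM with JQ1 and 1609 ± 7.14 RPKM with DMSO, to 0.894 in HCT15. With DMSO the SW480 sum was the lowest of the 6 lines, and with JQ1 it was below only that of HCT116, 1544 ± 18.4 RPKM. The mitochondrial sums had ratios of 0.770 in COLO320 to 0.904 in SW480.

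Other genes of tRNA charging and its use moved in both directions. Of 9 partners of mitochondrial charging, 6 were lower, 2 higher and 1 not called on average. QRSL1, TRMU, MTO1 and GATB changed most, by -0.65, -0.61, -0.50 and -0.49; TRMU and MTO1 modify the wobble base of mitochondrial tRNAs. MTFMT, which formylates the initiator methionine tRNA, was higher in all 6 lines, 0.37 on average. All 6 mitochondrial translation factors were lower, with TSFM at -0.37 and MTIF2 at -0.33. Of 6 cytosolic elongation factors 3 were higher and 3 lower, and EEF1D (0.53) and EEF2 (0.49) were higher in all 6 lines. Of 5 editing and hydrolysis genes tested, of 6 listed, 4 were lower, among them DTD1 (-0.57), which clears D-amino acids from tRNAs. Of 5 selenocysteine genes 3 were higher and 2 lower, EEFSEC at 0.60 and SEPHS1 at -0.66. Of 9 stress kinase and phosphatase genes 5 were higher and 4 lower, led by PPP1R15A at 0.53 and EIF2AK2 at -0.33. These counts stand against the 48.3% of all genes called lower and 40.2% called higher. With the cell line as the unit, 4 charging partners were lower and 1 higher, 2 mitochondrial factors lower, 1 elongation factor lower and 2 higher, and 3 editing genes lower. Of the selenocysteine genes 1 was then lower and 2 higher, and likewise of the kinase and phosphatase genes, against 20.3% of all genes lower and 18.6% higher.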

How the data were processed

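RNA from 36 libraries, 12 groups of 3, was analysed. The deposited values are RPKM per gene, made by the authors. GSNAP, DESeq and limma are named in the submitters' processing notes, with NCBIM37, a mouse assembly name, although the cells are human and the genes carry human Entrez numbers. For strand and read length, the sources used here give nothing. The deposited RPKM gave whole reads within 0.01 for 100% of genes above 0, and the authors' divisor followed median-of-ratios size factors. Gene names came from a RefSeq table.

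Genes with at least 1 RPKM in 3 or more libraries were kept, 15542 in all. Limma 3.58.1 (R 4.3.3) was fitted to log2(RPKM + 0.5) with 12 group means (24 residual degrees of freedom, eBayes with trend), and p-values were adjusted by Benjamini-Hochberg within each comparison. A fold change is on that scale and understates the change of low genes. Every SE, also where n = 3 against 3 is given, rests on the spread within groups pooled over all 36 libraries. For averages and differences between lines, the SE and p leave out the spread over lines. Differences between lines were tested by F tests and by 1 line minus the mean of the other 5. Means, SDs, promoter searches and figures were made in Python 3.11.15 (matplotlib 3.10.9, pandas 2.3.3, numpy 2.4.6, scipy 1.17.1). On counts simulated for the HCT116 comparison (15265 genes), 82% of 1.5-fold and 91% of 2-fold changes were recovered, and 27 unchanged genes were called. The simulation used the same dispersion for every gene and no JQ1 effect in the other 5 lines, so these shares hold for those settings only.

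The synthetases and gene lists were chosen with earlier results of these data known. Values by library were given for the 3 largest average falls and rises of each class, in the lines of largest and smallest change, for the 2 genes of each class with the smallest F test p, and for the HARS and WARS pairs. Of other lists, up to 4 genes with the largest average change, and ATF4, ASNS, MYC and the scaffolds, were named. A gene that this rule names is not reported here. Further genes given by value were chosen after their values were seen. Alternatives were other pseudocounts, filters and scalings, voom on the recovered reads, each line fitted alone, the cell line as unit, a replicate block and leaving out each library. Same-numbered JQ1 and DMSO libraries did not deviate together (r of -0.148 to 0.049 over 18 pairs).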

Additional observations from a re-analysis of the deposited data

Results flagged for a closer look

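The JQ1 effect on AARS1, the alanine enzyme, was 1.44 higher on the log2 scale in SW480 than in the mean of the other 5 lines (limma, adjusted p = 2.91e-28), with a rise in SW480 and a fall in each of the others. The effect on GARS1, the glycine enzyme, was 1.11 higher in SW480 than in the mean of the others (limma, adjusted p = 4.51e-23). The effect on FARS2, the mitochondrial phenylalanine enzyme, differed by -1.53 between COLO320 and the mean of the others (limma, adjusted p = 3.45e-17), with a fall in all 6 lines. All 35 synthetases had an effect that differed between lines by the F test, as did 93.3% of all genes.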

How the results depend on the processing

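Over all alternatives, 11054 values of single genes kept their direction and call, 136 lost a call, 40 gained one and 40 turned sign. These counts include the fits without 1 library. Leaving out a library of 1 line cannot move the log2 change of another line, so many values were bound to keep their direction. On average over the lines, the count of cytosolic enzymes lower by 1.5-fold became 1 with a pseudocount of 1, quantile normalization or median centring. The cytosolic median became -0.2513 with total reads as divisor, -0.1733 with quantile normalization and -0.1995 with median centring, and the mitochondrial median -0.2347 with total reads. With the cell line as unit, 8 cytosolic enzymes were lower and 1 higher, and 5 mitochondrial enzymes lower and 1 higher. With total reads, 1 cytosolic enzyme was higher in HT29, 4 were lower by 1.5-fold in HCT15, 0 mitochondrial enzymes were higher in HCT15, and 13 synthetases were lower in HCT15 than in the other lines. Median centring gave 11 lower in HCT116 than in the others, and quantile normalization 5 cytosolic enzymes lower by 1.5-fold in COLO205. In COLO320 that count became 1 with a pseudocount of 0.1 and with voom, and 1 mitochondrial enzyme was higher with the line fitted alone. The mitochondrial 1.5-fold rise in HCT116 became 0 with a pseudocount of 1, total reads or median centring. The cause was not tested.

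Changes near 0 turned sign. With total reads these were RARS1 (-0.0064) and RARS2 (-0.0184) on average, CARS1 (-0.0352), GARS1 (-0.1216), MARS2 (-0.0805), PARS2 (-0.0206) and RARS2 (-0.065) in HCT15, FARSB in HCT116 (-0.0108), and SARS1 (-0.0064), HARS2 (-0.066) and WARS2 (-0.0084) in HT29. With quantile normalization they were HARS1 on average (0.0153) and in COLO205 (0.036), GARS1 in HCT15 (-0.0707), AARS2 in HCT116 (0.0027) and TARS2 in COLO205 (0.0708). With median centring they were HARS1 on average (0.0017), GARS1 in HCT15 (-0.0059), NARS2 in COLO320 (0.0001) and TARS2 in COLO205 (0.0018), and with voom AARS2 in HCT116 (0.0029). Of these, GARS1 in HCT15 was called lower with total reads and with quantile normalization (limma's adjusted p = 6.9e-05 and 0.00925). Over these scalings the median of all genes lay between -0.067 and -0.004.

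Leaving out each of the 36 libraries in turn gave a cytosolic median of -0.2185 to -0.2117, 1 to 3 cytosolic enzymes higher in HT29 and 0 to 1 lower by 1.5-fold in COLO320. It gave 0 to 1 mitochondrial enzymes higher by 1.5-fold in HCT116, and in COLO320 0 to 2 higher and 1 to 2 lower by 1.5-fold. The count in HT29 fell to 1 without JQ1 replicate 3, and the count higher in COLO320 fell to 0 without JQ1 replicate 3 or DMSO replicate 1. Signs turned for FARSB (-0.0053 to 0.0312), AARS2 (-0.0378 to 0.0262) and MARS2 (-0.0184 to 0.065) in HCT116, GARS1 (-0.0069 to 0.0096) and SARS2 (-0.0722 to 0.033) in HCT15, HARS2 in HT29 (-0.0098 to 0.0203) and SARS2 in COLO320 (-0.0223 to 0.0395).

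No pairing by replicate number was seen, since only 6 of the 18 JQ1 libraries matched best the DMSO library of their number. This cannot show whether same-numbered libraries were handled together. A replicate block left 32 of 33 synthetases called on average (RARS1, at 0.0298, lost its call with limma's adjusted p = 0.0655) and 29 to 34 in single lines, against 29 to 33 without it. VARS2 in HCT15 lost its call with the block (limma's adjusted p = 0.0701).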
